A study of Mus musculus with 6 samples.

Results

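The exons described here are cassette exons that were left out of most messenger RNA of mouse small intestinal crypt cells. They were chosen from the deposited table of skipped exon events by 3 conditions: an exon of 31 to 299 nucleotides (nt), an average of 20 or more reads in a library, and an inclusion level below 10% when reads of all 6 libraries were pooled. Of 43465 skipped exon events in the table, 2596 met them. These events covered 2501 different exons in 1935 genes, and they made up 7.35% of the 35313 events of the same length range and coverage. An event is an exon together with the pair of exons on its sides, so an exon can appear in several events. The inclusion level is the share of transcripts that hold the exon, computed from reads that include it and reads that skip it, each divided by the length in which such reads can fall.

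A cassette exon is joined to its neighbours or removed together with the introns around it. PTBP1 binds pyrimidine-rich RNA, often repeats of U and C near an exon, and is best known for repressing such exons, so exons that are nearly silent while it is present are a class in which its loss has been studied widely, for instance in neurons and muscle. Many nearly silent exons hold a stop codon, and their inclusion sends the transcript to nonsense-mediated decay, which removes messages whose stop codon lies well before the last exon junction. Others keep the reading frame and add a short stretch of protein, often in a form used by another tissue.

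The WT mice (n = 3) had the genotype Ptbp1f/f and the PTBP1_KO mice (n = 3) the genotype Ptbp1f/f;Vil-creER+/-, so both groups carried floxed Ptbp1, all were C57BL/6 and 60 days old, and both received tamoxifen at 100 mg/kg on each of 2 days. In PTBP1_KO mice the Cre recombinase is driven by villin regulatory sequence and acts in intestinal epithelium, so other cells of the preparation keep Ptbp1. Crypt cells were taken 20 h after the last injection, after villi had been scraped away, by release in 2 mM EDTA and passage through a 70 µm strainer, and were not sorted. The splicing table sets 3 libraries, called the first set here, against 3 others, the second set, and does not say which genotype either is, so no direction by genotype is given below. A difference is positive where the first set had the higher inclusion.

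The library totals over all skipped exon events ranged from 32226951 to 39774266 reads, and over the low-inclusion events from 1050993 to 1392162. Ptbp1 itself was listed at 230.0 FPKM (fragments per kilobase of transcript, scaled to library size) in WT and 122.8 in PTBP1_KO, which is 53.4% of the WT level, with q = 0.0125 in the authors' deposited table. All 13 epithelial markers examined were expressed, from 6.78 to 2011 FPKM in WT. All 9 neuronal and glial markers and 9 of 10 stromal and muscle markers were below 1 FPKM in both groups. The 8 immune markers summed to 840 FPKM in WT and 971 in PTBP1_KO, of which Cd74 alone gave 790 and 898. All 8 immune markers were listed higher in PTBP1_KO, but only Cd8a passed q < 0.05 in the authors' deposited table. In bulk libraries, a change in the number of such cells and a change in RNA per cell cannot be told apart.

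Some of the exons described below are shown first, because exons are later grouped by what their sequences do to the reading frame. The first group holds changed exons with large differences that were higher in the first set and leave the reading frame intact. Capitals mark TCTT and CTCT, which are 4-letter pyrimidine words of the kind PTBP1 binds; overlapping matches are merged. Sequences are from GENCODE M21 transcripts on mm10, 5′ to 3′ on the transcribed strand.
Acap2, chr16:31107528-31107632, minus strand, 105 nt: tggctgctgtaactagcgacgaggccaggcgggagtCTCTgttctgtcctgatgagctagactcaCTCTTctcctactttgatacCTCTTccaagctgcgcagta
Smap1, chr1:23871438-23871518, minus strand, 81 nt: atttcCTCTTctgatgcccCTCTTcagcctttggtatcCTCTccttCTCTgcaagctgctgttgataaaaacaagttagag
Rapgef1, chr2:29710156-29710308, plus strand, 153 nt: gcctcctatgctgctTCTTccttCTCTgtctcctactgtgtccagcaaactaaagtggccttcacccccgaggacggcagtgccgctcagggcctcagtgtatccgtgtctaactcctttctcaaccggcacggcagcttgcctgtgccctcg
Raph1, chr1:60510417-60510491, minus strand, 75 nt: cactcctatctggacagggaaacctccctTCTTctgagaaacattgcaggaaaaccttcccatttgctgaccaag
Palld, chr8:61534858-61534908, minus strand, 51 nt: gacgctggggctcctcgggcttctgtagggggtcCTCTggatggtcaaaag

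The second group holds exons with a stop codon, in capitals, in the frame of the transcript that skips them. The Tpm1 exon is a coding exon that reads into this stop when it is placed beside its 76 nt partner exon. The other exons belong to transcripts annotated for nonsense-mediated decay, and they are printed from their first base to the stop.
Tpm1, chr9:67031951-67032026, minus strand: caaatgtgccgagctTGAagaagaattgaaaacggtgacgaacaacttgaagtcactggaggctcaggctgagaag
Klrd1, chr6:129596547-129596721, plus strand: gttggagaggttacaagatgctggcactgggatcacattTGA
N4bp2l1, chr5:150577172-150577299, minus strand: gtattgtTAG
Pacs2, chr12:113023142-113023248, plus strand: ggccTAG
Angel2, chr1:190934746-190934994, plus strand: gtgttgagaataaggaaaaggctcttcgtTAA
Iqgap1, chr7:80729644-80729691, minus strand: ttctgtgctttcctacagTGA
Rbm3, chrX:8144175-8144445, minus strand: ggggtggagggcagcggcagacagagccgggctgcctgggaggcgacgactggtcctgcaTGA

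Most of these exons were close to silent. The pooled inclusion level had a median of 1.65% and quartiles of 0.540% and 4.17%, and 976 events (37.6%) lay below 1%. These levels chose the exons and are given as a description. The exons just inside the limit were in Pym1 at 9.98%, D3Ertd751e at 9.98% and Kmt5b at 9.97%, and exons just outside it were in Aprt at 10.04% and Ptk2 at 10.04%. The median event had 154 reads per library, but a median of only 22 inclusion reads over all 6 libraries together, and 758 events had fewer than 10. Some of the most deeply read events had very low levels. In Cox8a, a subunit of cytochrome c oxidase, a 69 nt exon was listed at 0.0117% over 18262 reads per library. That level rested on 19 inclusion reads over all 6 libraries. In Ptma, which encodes prothymosin alpha, an 82 nt exon was at 0.0544% over 24794 reads, from 127 inclusion reads in all. Whether levels this low differ from stray reads was not tested. The most read event of all was an 82 nt exon (chr7:131120791-131120872) of Dmbt1, a secreted scavenger receptor of mucosal surfaces, with 31368 reads per library. Its levels were 7.10%, 8.20% and 7.34% in the first set and 10.7%, 9.98% and 10.9% in the second, which did not overlap, with a difference of -0.03 and an FDR of 0.000688 in the authors' deposited table. The gene holds repeated domains that can share reads, so this value is uncertain.

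The label of mostly silent exons held for most members, not all. Of the 2501 exons, 184 (7.36%) had another event, with other neighbours, whose pooled level was at least 10%, and 45 of those had one above 90%. For these exons the low level describes 1 combination of neighbours and not the exon. A further limit is that 730 exons (29.2%) overlap another annotated exon of their gene, against 50.3% of exons included at 10 to 90%, called intermediate below.

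Within the length range that the selection set for all classes, the exons were a median of 100 nt long, against 108 nt for intermediate exons and 115 nt for exons above 90%. Their annotation and reading frame were not used in the selection. Only 715 (28.6%) were coding exons of a protein-coding transcript in GENCODE M21. An exon found in several kinds of transcript was counted under the first of coding, untranslated, decay and other non-coding. In this count, 477 (19.1%) were untranslated exons of protein-coding transcripts. Another 743 (29.7%) occurred in transcripts annotated for nonsense-mediated decay and in no protein-coding transcript. A further 557 (22.3%) occurred only in other non-coding transcripts, and 9 matched the ends of no annotated exon. Among 3058 intermediate exons 64.98% were coding and 9.88% were decay exons, and among 24681 exons above 90% the shares were 93.9% and 2.12%.

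The effect of each exon was read by inserting it into an annotated coding transcript that joins the same neighbours without it. This was possible for 1919 exons (76.7%). A stop codon inside the exon was met in 1204 of them (62.7%), where codons split by a junction of the exon were counted too. The frame was kept in 457 (23.8%), shifted to an early stop in 199 (10.4%) and shifted with no early stop in 59 (3.07%). A stop after a frameshift was called early when it lay more than 50 nt before the last exon junction. This distance was not checked for stops inside the exon. Among the 1247 intermediate exons that could be read (40.8% of them) the stop share was 32.7% and the kept share 53.1%. Of 851 readable low-inclusion exons whose length is a multiple of 3, 394 (46.3%) held a stop, against 16.8% of such intermediate exons. Of 743 decay exons, 622 held the stop, which the annotation partly implies, since these transcripts are annotated from their stops. A stop was also found in 353 of 557 exons of other non-coding transcripts. It was met as well in 141 of 715 coding exons and in 88 of 477 untranslated exons of protein-coding transcripts. For a coding exon the class describes its insertion between the neighbours of the event, as for Tpm1 above, and not every transcript that holds it.

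Differences between the 2 sets of libraries were read from the authors' test. An event counted as changed when its FDR was below 0.05 and its inclusion differed by at least 0.1 (10 percentage points). Of the 2596 events 26 were changed (1.0%), in 25 genes, against 1.68% of all 37725 skipped exon events with enough reads. A pooled level below 10% limits how large a difference can be, so the FDR alone was counted beside it. It was passed by 213 events (8.20%) in 196 genes, against a background of 3.79%. Among intermediate exons 15.9% passed the FDR and among exons above 90% it was 1.72%, so the low-inclusion exons lay between these classes. The median absolute difference was 0.046 among those that passed and 0.007 over all low-inclusion events.

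Most differences had the same sign. Of the 213 events past the FDR 165 were higher in the first set, against a background of 2.4% of events, and 48 were higher in the second, against 1.39%. The positive share was therefore 77.5%, compared with 62.1% among intermediate exons and 53.2% among exons above 90%; these shares were not tested against each other. Of the 26 changed events 21 were positive (background 1.11%) and 5 negative (background 0.567%). Over all 2596 events, every library of the first set lay above every library of the second in 275 (10.6%, background 4.23%), and the reverse held in 124 (4.78%, background 3.74%). No inclusion read was found in any library of the second set, with reads in all 3 of the first, in 53 events (background 0.18%), and the reverse held in 11 (background 0.0292%). A set without inclusion reads nearly always means a low pooled level, on which the events were chosen, so nothing is read from these counts against their background.

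**Figure D1:**
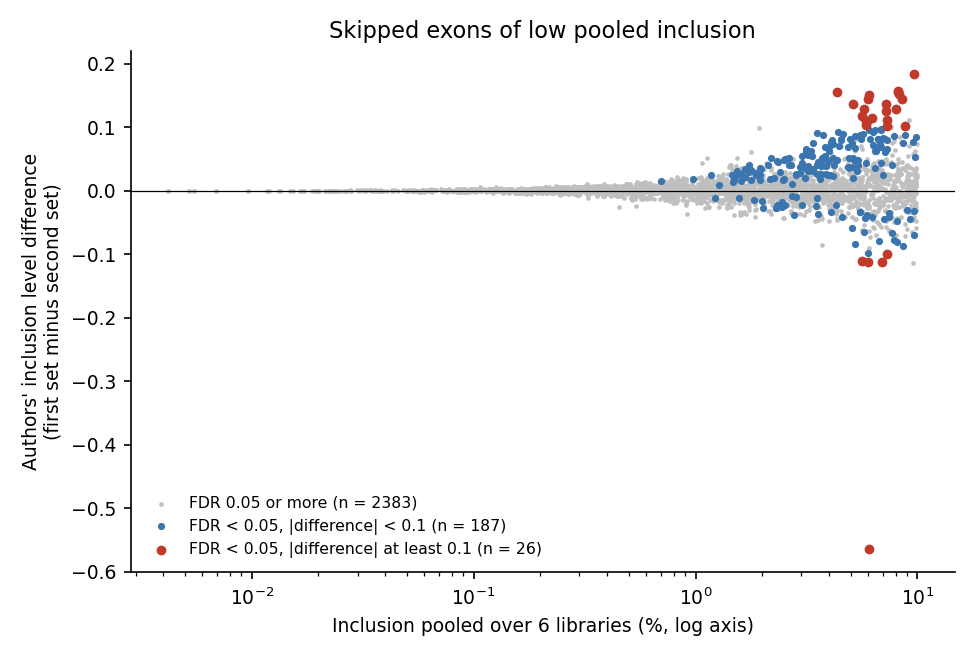
Each point is 1 of the 2596 events; the x axis is the inclusion level pooled over 6 libraries in percent on a log axis, and the y axis is the authors' inclusion level difference, first set minus second set. The 26 changed events (red) lie at the right, 21 above and 5 below the line at 0, and the point near -0.56 is the Clta event.

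The share of events past the FDR grew with the pooled level. None of the 618 events below 0.5% passed it and 0 of them had an unadjusted p below 0.05 in the authors' deposited table, although they had a median of 269 reads per library, more than the other bands. Between 0.5% and 2% 28 of 818 passed (3.42%), between 2% and 5% 94 of 635 (14.8%), and between 5% and 10% 91 of 525 (17.3%). All but 1 of the 26 changed events lay in the last band, the exception being the Raph1 exon at 4.35%. Whether the authors' test can call events at the levels of the lowest band, and whether depth limits calls there, was not tested. The 618 events are therefore not read as unchanged, although they count among the 2596 events behind the share of 8.20%.

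Frame-keeping exons passed the FDR in a larger share of events than exons with a stop; the difference between these shares was not tested. Among 469 events whose exon keeps the frame 76 passed the FDR (16.2%), 67 of them positive, and 15 were changed. Among 1213 events with a stop in the exon 72 passed (5.94%), 53 positive, and only 4 were changed. Both groups had like coverage: the median was 158 reads per library and 22 inclusion reads for frame-keeping exons, and 177 and 23 for exons with a stop. Their median pooled levels were 1.79% and 1.36%. Frameshifts to an early stop gave 12 of 201 (5.97%), frameshifts with no early stop 7 of 61 (11.5%) and exons outside the coding region 27 of 518 (5.21%). Exons with no sequence found, or with no complete coding transcript that skips them, gave 19 of 134 (14.2%). Read the other way, 45.2% of the 166 readable exons past the FDR kept the frame, against 21.8% of the 1750 that did not pass it. Decay acts on transcripts whose stop lies well before the last junction, a distance that was not checked for stops inside the exon. A level seen here is that of the transcripts that remain, and the part of decay in these shares was not tested.

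**Figure D2:**
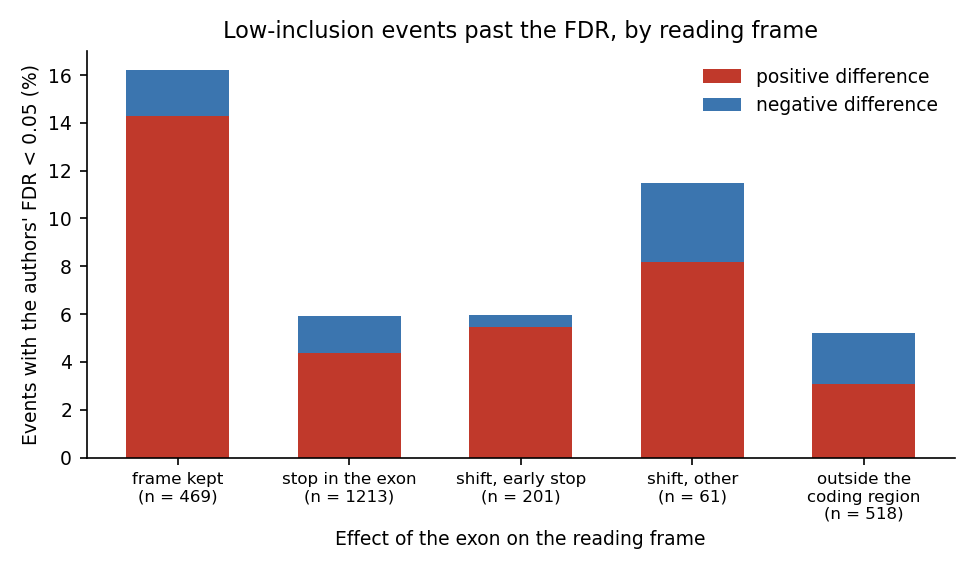
Bars give the percentage of low-inclusion events with the authors' FDR below 0.05, split by sign, for each effect of the exon on the reading frame, with the number of events under each bar. Frame-keeping exons reach 16.2% and exons with a stop 5.94%. The 134 events with no exon sequence found, or with no complete coding transcript that skips the exon, are not drawn, and 19 of them passed.

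**Figure D3:**
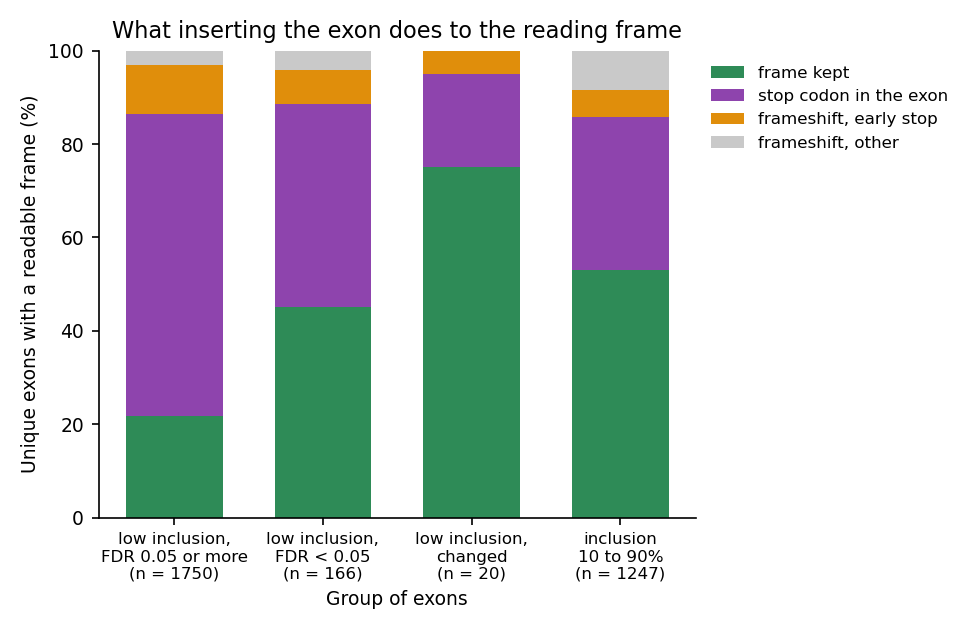
Stacked bars give the percentage of unique exons with a readable frame in each frame class, for low-inclusion exons that did not pass the FDR, that passed it and that were changed, and for intermediate exons. The share of exons with a stop in the exon is 64.5%, 43.4%, 20.0% and 32.7% in that order.

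The changed events are described in turn. The Acap2 exon, in a GTPase-activating protein for the small GTPase Arf6, had 28, 16 and 20 inclusion reads in the 3 libraries of the first set and 2, 0 and 0 in the second. Its levels were 25.6%, 15.6% and 16.2% against 2.56%, 0% and 0%. The sets did not overlap, and the authors' deposited table gave a difference of 0.183 and an FDR listed as 0. The exon of Smap1, also an activating protein for Arf6, which acts in clathrin-dependent endocytosis, had levels of 16.0%, 12.8% and 18.9% against 0.125%, 0.247% and 0.227%. All libraries of the first set were far above those of the second here, with 564 reads per library behind the event and a difference of 0.157 in the authors' deposited table. Its 81 nt hold 6 of the pyrimidine words, the most among the exons printed in full.

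Rapgef1, an exchange factor that activates the small GTPase Rap1, held 2 changed exons in 1 intron. The 153 nt exon had 9, 16 and 14 inclusion reads in the first set and none in the second, and the 258 nt exon had 6, 13 and 27 against none. The levels of the first set were 13.5%, 15.3% and 17.96% for the shorter and 7.13%, 9.77% and 23.8% for the longer exon. Both share the same skipping reads, so they are not independent measurements. The authors' deposited table listed differences of 0.156 and 0.136. In Exoc7, a subunit of the exocyst that tethers secretory vesicles, a 39 nt frame-keeping exon (chr11:116293275-116293313) had levels of 12.8%, 11.4% and 15.3% against 1.08%, 0.789% and 0%, with no overlap. Its difference was 0.125 with an FDR listed as 0 in the authors' deposited table. Osbpl9, of the oxysterol-binding protein family, held a 69 nt exon (chr4:109107881-109107949) at 24.0%, 9.13% and 5.26% in the first set and 0% in all of the second. Another event of this exon, with other neighbours, had a pooled level of 13.5% and is outside the class; it was changed in the same direction, by 0.237 in the authors' deposited table.

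Tpm1, Raph1 and Palld encode actin-associated proteins. The Tpm1 exon, 1 of a pair used in turn in this actin-binding tropomyosin, was by far the best covered changed event, with 2011 reads per library. It had 295, 248 and 364 inclusion reads in the first set and 48, 56 and 62 in the second, or 16.4%, 10.9% and 20.3% against 1.26%, 1.35% and 1.54%. The sets did not overlap, and the authors' deposited table gave a difference of 0.145. The neighbouring partner exon (chr9:67032466-67032541) changed the opposite way in 1 of its 2 events, with a difference of -0.419 in the authors' deposited table. Its other event, at -0.004 there, did not pass the FDR. The event of Tpm1 counted here skips to or includes the exon beside its partner. In the other event of the Tpm1 exon, the same exon was pooled at 93.4%. That event was also higher in the first set, by 0.305 in the authors' deposited table. The exon is thus 1 of those for which the low level describes a combination and not the exon.

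Raph1 and Palld had fewer reads. In Raph1, which encodes lamellipodin, a protein of the cell's leading edge, the first set had 11, 4 and 5 inclusion reads and the second none. In Palld, which encodes the actin cross-linking protein palladin, the counts were 16, 12 and 2 against none. The first set was above the second in every library in both, but the third library of the Palld first set, at 3.74%, was well below the others at 19.4% and 22.8%. In the authors' deposited table the difference was 0.156 for Raph1 and 0.153 for Palld.

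**Figure D4:**
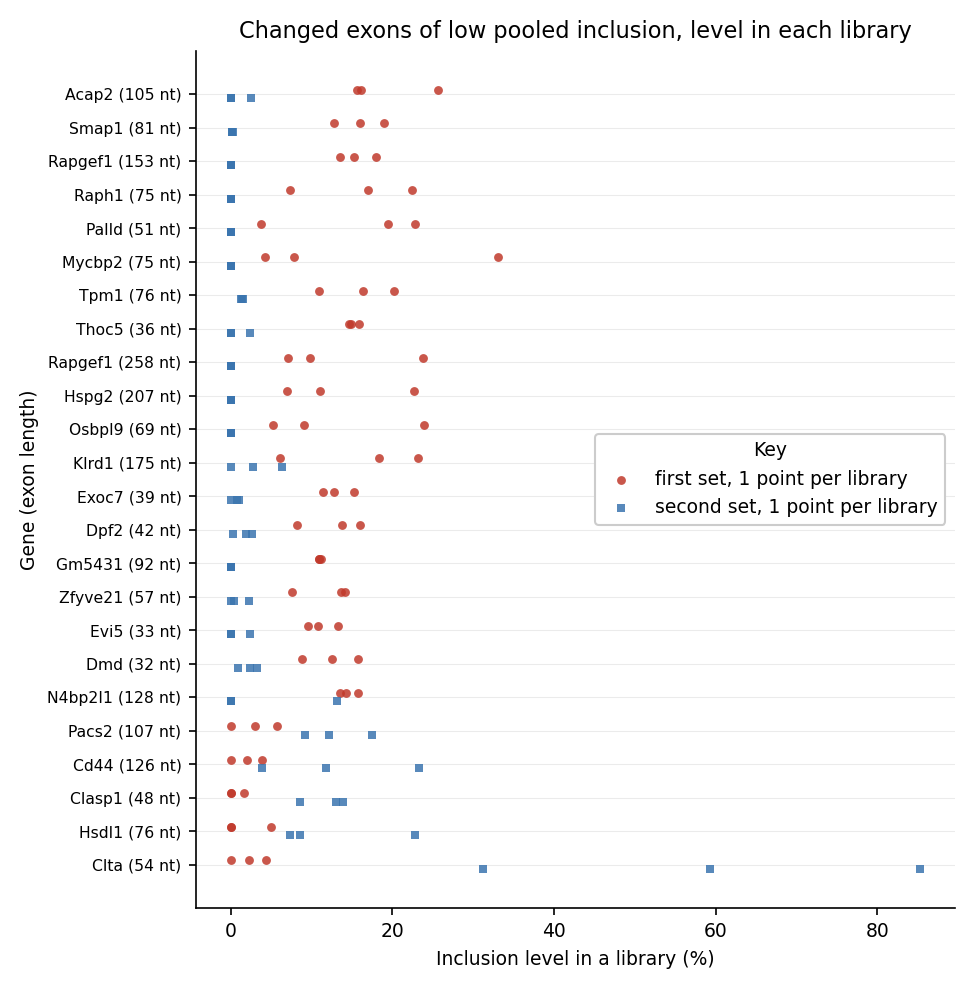
Each of the 24 rows is 1 changed event, named by gene and exon length, and each point is the inclusion level of 1 library in percent, red circles for the first set and blue squares for the second. The sets overlap in 2 rows, Klrd1 and Cd44; the 5 lowest rows are higher in the second set, and Clta reaches 85.3% there.

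Thoc5, a subunit of the THO complex that couples transcription to messenger RNA export, held a 36 nt exon (chr11:4911435-4911470) with levels of 14.7%, 15.9% and 14.9% against 2.44%, 0% and 0%. The libraries of the first set lay close together, far above the second, with a difference of 0.144 in the authors' deposited table. The Mycbp2 exon, in a ubiquitin ligase, had only 6, 2 and 4 inclusion reads against none, and the 207 nt exon of Hspg2 (chr4:137524936-137525142), which encodes the matrix proteoglycan perlecan, had 5, 4 and 7 against none. In both the lowest library had fewer than 20 reads, as in 8 of the 26 changed events. Among the other changed exons, which are named after their values were seen, Dpf2, a subunit of the BAF chromatin remodelling complex, had levels of 16.0%, 8.25% and 13.8% against 1.93%, 0.296% and 2.64%, with 294 reads per library. The exon of Zfyve21, which encodes a FYVE domain protein, had 14.2%, 7.62% and 13.6% against 0%, 2.29% and 0.440%, with 336 reads per library. Dmd, Evi5 and Gm5431 were also higher in every library of the first set, by 0.102, 0.104 and 0.11 in the authors' deposited table. Their inclusion reads were 4, 14 and 16 against 2, 3 and 1 in Dmd, and 4, 6 and 3 against 0, 0 and 1 in Evi5. Gm5431 had 7, 2 and 4 against none, and 1 library of its second set had only 3 reads in all.

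Only 4 changed exons were read as holding a stop. Besides Tpm1 these were in Klrd1, N4bp2l1 and Pacs2, whose stops begin at base 40, 8 and 5 of the exon. The Klrd1 exon, in a receptor chain of natural killer and cytotoxic T cells, had levels of 18.4%, 6.06% and 23.1% against 6.40%, 0% and 2.74%, and its sets overlapped. Klrd1 is expressed in cells in which the villin-driven Cre is not expected. All 8 immune markers given above were listed higher in PTBP1_KO, but only Cd8a passed q < 0.05 in the authors' deposited table. Klrd1 itself was listed at 3.01 FPKM in WT and 3.75 in PTBP1_KO and did not pass. The part of such cells in the splicing result of Klrd1 was not tested. The N4bp2l1 exon had 13.6%, 14.3% and 15.7% against 13.1%, 0% and 0%, so 1 library of the second set was close to the first. Its FDR of 0.0461 in the authors' deposited table was the nearest to the threshold of the 26.

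The 5 changed exons that were higher in the second set had few reads. Clasp1, which encodes a protein that binds growing microtubule ends, held a 48 nt frame-keeping exon (chr1:118512175-118512222) with 0, 0 and 1 inclusion reads in the first set and 3, 6 and 5 in the second, or 0%, 0% and 1.68% against 8.57%, 13.8% and 13.04%. The Pacs2 exon, in a sorting protein of the secretory pathway, had levels of 5.70%, 0% and 3.01% against 12.2%, 17.4% and 9.19%. In these genes the sets did not overlap, and the authors' deposited table gave -0.112 and -0.1. Hsdl1 (-0.113 in the authors' deposited table) was also separated, at 0%, 5.04% and 0% against 7.35%, 8.55% and 22.8%. In Cd44, a hyaluronan receptor with a block of variable exons, the sets overlapped, at 0%, 1.97% and 3.88% against 11.8%, 3.87% and 23.4%.

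The largest difference of all, in Clta, rested on reads that skip the exon. Clta encodes clathrin light chain A, and its 54 nt and 36 nt exons are cassettes in this protein. The exon of this event is shown here because of the reads behind it.
Clta, chr4:44030215-44030268, plus strand, 54 nt: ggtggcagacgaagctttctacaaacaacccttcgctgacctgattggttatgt
In the event with the 36 nt exon as its downstream neighbour, inclusion reads were 5, 0 and 4 in the first set and 8, 4 and 5 in the second. The skipping reads were 79, 78 and 125 against 1, 2 and 8. The levels of 4.4%, 0% and 2.27% against 85.3%, 59.3% and 31.2% rested on these counts, with at most 8 inclusion reads in a library, and the authors' deposited table gave -0.564. In the other event of this exon, with an exon farther downstream as its neighbour, the level was 0.152%, 0.0342% and 0.175% against 0.137%, 0.0640% and 0.219%, and the authors' deposited table gave a difference of 0 with an FDR of 1. The 36 nt exon (chr4:44031400-44031435) was itself a low-inclusion exon past the FDR, at 1.62%, 1.59% and 2.32% against 0.0188%, 0.0352% and 0.185%, with a difference of 0.018 in the authors' deposited table. Skipping reads of the first event join this 36 nt exon, so its 89, 86 and 136 inclusion reads against 1, 2 and 10 share their source with them.

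Among exons past the FDR with a difference below 0.1, the following are examples named after their values were seen; over all 213 events past the FDR, the sets overlapped in 44. In Epb41l3, which links the spectrin and actin skeleton to the membrane, a 123 nt frame-keeping exon (chr17:69283885-69284007) had 211, 140 and 184 inclusion reads against 39, 30 and 58, or 5.56%, 5.59% and 6.90% against 1.40%, 1.20% and 1.57%. Cortactin (Cttn), an activator of branched actin, held a 111 nt exon (chr7:144450978-144451088) at 9.44%, 11.4% and 10.6% against 2.36%, 5.18% and 3.27%. Cltb, the other clathrin light chain gene, held a 54 nt exon (chr13:54597026-54597079) at 2.13%, 3.02% and 2.89% against 0.286%, 0.441% and 0.343%. The sets did not overlap in any of these genes, and the authors' deposited table gave differences of 0.046, 0.068 and 0.023.

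Further examples were in Pkm and Slc37a4. Pkm, which encodes pyruvate kinase, has a pair of exclusive 167 nt exons; the one in this class (chr9:59675029-59675195) had 150, 113 and 151 inclusion reads against 58, 47 and 63, or 4.03%, 3.68% and 4.88% against 1.76%, 1.43% and 1.57%. The exon of Slc37a4 (chr9:44401707-44401769, 63 nt), the glucose-6-phosphate transporter of the endoplasmic reticulum, was at 12.6%, 6.21% and 8.62% against 0%, 0.412% and 0%. Both were higher in every library of the first set. The negative side held Dst, a linker of cytoskeletal filaments, at 3.66%, 0% and 5.98% against 11.9%, 8.99% and 14.8% in a 111 nt exon (chr1:34303421-34303531), and Agap3, an Arf GTPase-activating protein, at 6.04%, 3.97% and 4.18% against 17.0%, 8.51% and 12.9% in a 171 nt exon (chr5:24496733-24496903). In the authors' deposited table these differed by -0.087 and -0.081.

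Exons with a stop that passed the FDR are shown by Angel2 and Iqgap1, also named after their values were seen. The Angel2 exon was included at 6.02%, 4.92% and 6.80% against 0%, 0% and 0.794%. In Iqgap1, a scaffold of actin and cell junctions, the 48 nt exon had 19, 32 and 31 inclusion reads against 0, 0 and 2, or 5.83%, 7.34% and 6.79% against 0%, 0% and 0.318%. Both were separated between the sets, with differences of 0.056 and 0.065 in the authors' deposited table.

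Splicing factors are known for such exons, and 28 of the 65 SR protein, hnRNP and core splicing genes examined held 46 of these events. Of the 46, 29 held a stop in the exon and 2 kept the frame, whereas over all low-inclusion events 1213 of 2596 held a stop and 469 kept the frame. Only 1 of the 46 passed the FDR, against 8.20% of all low-inclusion events, and none was changed, while 8 had an unadjusted p below 0.05 in the authors' deposited table, against 498 (19.2%) of all 2596 low-inclusion events. The median difference was 0.001, the same as over all low-inclusion events. The event past the FDR was the decay exon of the cold-inducible RNA-binding protein Rbm3, at 4.71%, 6.85% and 6.61% against 3.41%, 4.02% and 4.77%, so the sets overlapped narrowly. The authors' deposited table gave a difference of 0.02 with an FDR of 0.000246. Well-covered stop exons of this list did not pass. The Srrm2 exon was at 7.53%, 7.55% and 7.22% against 8.98%, 10.2% and 8.24%, with an FDR of 0.292 in the authors' deposited table. Its sets did not overlap, and the second was higher. The Rbm39 exon was at 4.19%, 2.93% and 3.70% against 4.88%, 3.42% and 4.87%, with an FDR of 0.838 in the authors' deposited table, and its sets overlapped.

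In the list of the PTB family, its co-regulators, tissue splicing regulators and decay factors, 9 of 40 genes held 12 events, and none passed the FDR, against 8.20% of all low-inclusion events, while 2 had an unadjusted p below 0.05 in the authors' deposited table, against 19.2% of all. The nearest was the 89 nt exon of Rbm47, an epithelial RNA-binding protein, at 4.59%, 3.8% and 3.87% against 0.614%, 0% and 3.45%, with an FDR of 0.190 in the authors' deposited table. In the cytoskeletal list 29 of 62 genes held 67 events, of which 38 kept the frame, 15 passed the FDR (12 positive and 3 negative) and 4 were changed. In the membrane traffic list 27 of 59 genes held 43 events, of which 11 passed (9 positive and 2 negative) and 2 were changed. Over all 2596 low-inclusion events 469 kept the frame, 213 passed (8.20%) and 26 were changed (1.0%), and no list was tested against these shares. The list of chromatin and p53 pathway genes held 23 events in 17 of 47 genes, and 1 passed. The median differences of these lists were 0.002, 0.009 and -0.001.

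The exon sequences were searched for TCTT and CTCT on the transcribed strand. They occurred 1.27 times per 100 nt in the 2492 low-inclusion exons with a sequence, 1.04 in intermediate exons and 0.929 in exons above 90%, and at least 1 was present in 62.1%, 58.1% and 56.9% of them. Within the class the words occurred 1.67 times per 100 nt in the 163 exons past the FDR that were higher in the first set, 0.875 in the 47 that were higher in the second and 1.25 in the others. The same letters on the opposite strand, read as AAGA and AGAG, occurred 1.32, 1.29 and 1.504 times in these groups. Not every changed exon held a word. Among changed exons with a sequence, at least 1 was present in 13 of the 20 higher in the first set (65%). The same held for 2 of the 5 higher in the second. The words occurred 2.36 and 0.973 times per 100 nt in these 20 and 5 exons. A match is a description of the letters, and the introns around the exons were not read.

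The levels of the genes that hold these exons seldom differed between the genotypes. Of 1923 tested genes 5 passed q < 0.05 in the authors' deposited table (0.260%, against 0.537% of all 15460 tested genes): Gcg, Gsn and Gzma were higher in PTBP1_KO, and Sh2d6 and Tpm1 lower. Among the 25 genes with a changed exon, Tpm1 was the only one, at 192 FPKM in WT and 121 in PTBP1_KO with q = 0.0125 in the authors' deposited table. The median log2 ratio of PTBP1_KO over WT, with 1 added to both FPKM values, was 0.02 in genes that hold a low-inclusion exon and 0.02 in all tested genes. These are 1 value per group, with no spread between mice.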

How the data were processed

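Libraries were prepared with a stranded mRNA kit, per the labels' protocols, and the submitters' processing notes name bcl2fastq 2.20 and Trimmomatic 0.38, the aligner STAR 2.6.1d, the build mm10, and Cufflinks with Cuffdiff. The skipped exon table has the MATS layout with junction and exon-body reads. It holds each library's inclusion and skipping read counts, effective lengths, the difference in inclusion, an FDR and a p-value, made by the authors, per the file headers; the caller's version is not given in the sources used here. For genes, the deposited values are 1 FPKM per group with the authors' log2 fold change, test score, p-value and q-value, per the file headers. No test of the sets was run, since the headers name no genotype, and the authors' values measure only the spread between these samples. The authors' 2 columns that list library inclusion levels went unused; levels were recomputed from the counts.

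An event was called changed at FDR < 0.05 and an absolute difference of at least 0.1. Frames were read from GENCODE M21 transcripts; no genome sequence was used, so the planned intron windows and splice sites were not read. The exons, gene lists and markers were chosen with earlier results of these data known, and the frame classes and exon motifs were added after the data were seen. Named exons were the changed events with the largest differences (10 genes positive, 6 negative at most), changed events in the cytoskeletal, membrane traffic and chromatin lists, splicing list members by smallest p, the most read events, the events nearest the limit and genes changed in level; others are said to be named after their values were seen. Exons printed are those among the 8 changed ones with the largest differences, and stop exons added after their values were seen; some sequences and genes are not reported here. Scripts ran on Python 3.11.15 with pandas 2.3.3, numpy 2.4.6, matplotlib 3.10.9 and scipy 1.17.1. Only the inclusion limit and the frame rule for kept frames and stops in the exon were tested on simulated data. Frameshifts, the choice of transcript and the motif counts were not.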

Additional observations from a re-analysis of the deposited data

How the results depend on the processing

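The number of low-inclusion events stayed within 1.5 times of 2596 under every setting run. The 26 changed events became 1 at a pooled level below 5%, 100 below 20%, 12 at a mean of 50 reads, 13 without division by effective length, 100 at a difference of 0.05, 1 (Clta) at 0.2 and 213 with no minimum difference. Leaving out each library in turn from the pooled level gave 22 to 45 changed events, the highest without library 3 of the first set, and 208 to 232 past the FDR. The 213 events past the FDR became 122 at a pooled level below 5% and 325 below 20%. Each of these changes which events can enter. Settings chosen after the data were seen left 25 changed events when the class used the mean of library levels, which drops Clta, 21 among exons that overlap no other and 24 among exons with no other event of 10% or more. The share with a stop, 62.7%, was 64.99% among exons with an FDR above 0.5; the cause was not tested. No paired analysis was possible because the columns carry no replicate numbers. Windows of 50 and 100 intron bases were not run. The median event had 22 inclusion reads over all libraries.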
